A study of Arabidopsis thaliana with 4 samples.

Results

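The stretch described here consists of the probes on plates 70 to 99 of the TA plate series, on an array that carried H3K4me2 chromatin from Arabidopsis thaliana seedlings. Members were taken by name alone: every feature called TA, a plate number from 70 to 99, a plate row from A to H and a column of 2 digits, as long as it had a value. Of 2880 such wells 2874 had a value and 6 were empty, so the stretch made up 2874 of the 21728 valued probes of the array, on 30 of its plates. Its limits had been set with plate medians of the same data in view, so levels, calls and run lengths inside it are given as descriptions, without tests.

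Untreated whole seedlings of accession Col-0, aged 10 days, were profiled in 1 group, with chromatin immunoprecipitated by an antibody against dimethylated lysine 4 of histone H3 hybridised together with its own input DNA. There were 2 replicates, I and II, each on 2 arrays with the dyes swapped, 4 arrays in all. Both columns of a swap were identical at every feature (0 features differed), so n was 2 profiles. Since no label ties I and II to separate cultures, the spread between them may be technical.

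Methylation of this lysine is carried out by SET-domain enzymes and marks chromatin that is open to transcription. In Arabidopsis the dimethylated form is known to lie along genes, whether expressed or not, and to be scarce over transposons and silent heterochromatin. Along a stretch of chromosome it is therefore known to come and go over distances of single genes. The probes here were paired with neither genes nor positions, so high and low values could not be assigned to either kind of sequence, and no sequence is shown. All values are log ratios of both channels in deposited units, less the median of all valued probes of that replicate. The log base was not given, and it was not settled whether a positive value means more immunoprecipitate or more input. The words "higher" and "lower" therefore refer to the deposited values throughout, and which of them means more H3K4me2 depends on that direction.

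The stretch as a whole sat at the middle of the array, with a smaller share of very low values than the rest. Its median averaged 0.04 ± 0.02 (SD, n = 2), with 0.06 in replicate I and 0.03 in replicate II, against -0.01 and -0.005 for the other 18854 probes. The central range of its probes, from the lower to the upper quartile, ran from -0.58 to 0.67, against -0.96 to 0.65 in the rest of the array. Values under -1 were found for 343 probes (11.9%) of the stretch and for 23.97% of the rest, while values over 1 were found for 316 (11.0%) and 11.2%. The rest was not uniform: values under -1 made up 9.68% in TA plates 1 to 20, 6.73% in the 100 TB plates and 35.4% in TA plates 52 to 69. The plates of the stretch lay near the array median and on both sides of it.

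In a limma fit of every valued probe against the array median, with Benjamini-Hochberg adjustment at 0.05, a probe is called higher or lower when it passes. Of the stretch, 1158 probes (40.3%) were called higher, where 40.3% of all probes on the array were, and 997 (34.7%) were called lower, where 40.2% of all were. The remaining 719 (25.02%) were not called; on the whole array 80.4% of probes were called in either direction. The smallest values called in the stretch were 0.30 and -0.30. These counts follow the centre. With each replicate centred on its most common value in place of its median, 397 (13.8%) were higher and 1636 (56.9%) lower, where 13.9% and 57.1% of all probes on the array were. With no centring, 1074 (37.4%) were higher and 520 (18.1%) lower, where 37.3% and 27.5% of all were.

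Plate medians went up and down along the stretch, and the plot of plate medians shows both replicates doing so together. The median was on the same side of the array median in both replicates for 25 of 30 plates, and across plates the medians of I and II correlated with r = 0.962 (30 plates, all from the same 2 profiles). The spread between replicates was small beside the spread between plates. The SD of a plate's median over I and II had a median of 0.06 and a highest value of 0.17, whereas the plate medians had an SD across plates of 0.40 in I and 0.43 in II.

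**Figure D1:**
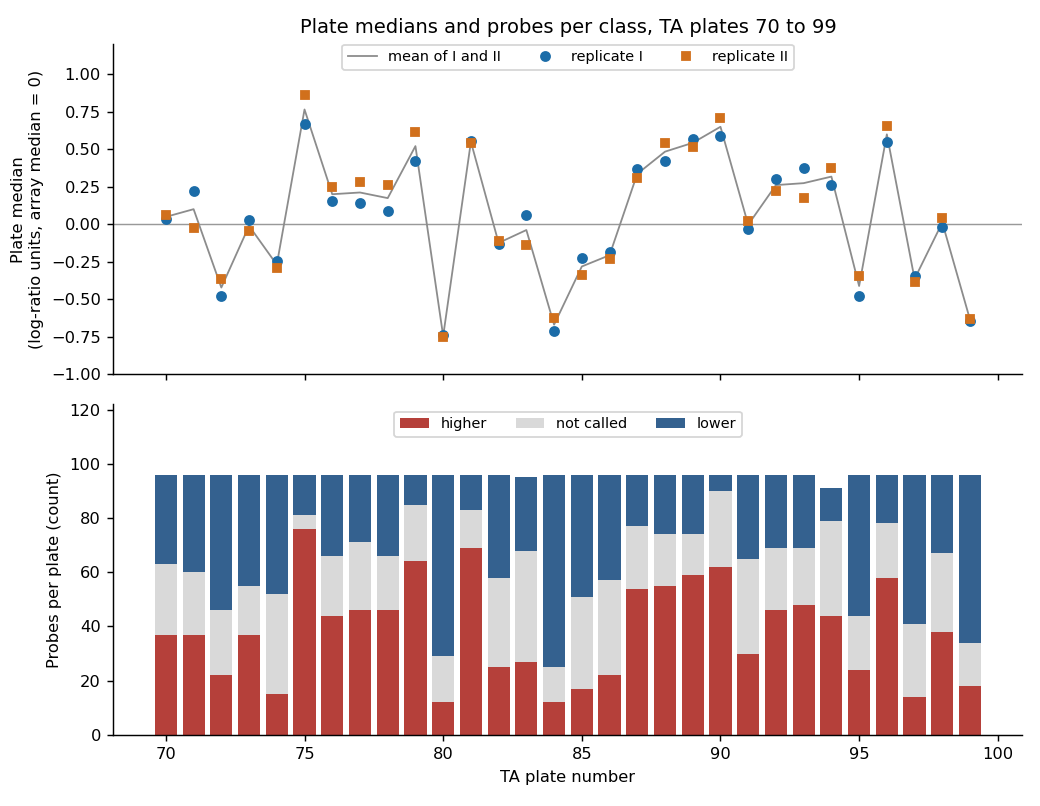
Top: median of each TA plate from 70 to 99 in replicate I (circles) and replicate II (squares), in log-ratio units with the array median at 0, with a line through the mean of both. Bottom: number of probes per plate called higher, not called and called lower. Plates 75 and 90 are the highest, at means of 0.76 and 0.65, plates 80 and 84 the lowest, at -0.74 and -0.67, and every plate holds probes called in both directions.

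The stretch opened close to the array median. Plate 70, its first, had medians of 0.04 in I and 0.06 in II, against -0.02 and -0.05 for plate 69 just before it. Plate 71 was at 0.22 in I but -0.02 in II, so its side was not the same in both. Plate 72 was the first clearly low plate, at -0.48 and -0.37. Plate 73 returned to the middle, at 0.03 and -0.05, and plate 74 was low again, at -0.24 and -0.29.

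The highest plate followed directly. Plate 75 had medians of 0.67 in I and 0.86 in II, a mean of 0.76 ± 0.13 (SD, n = 2), with 76 of its 96 probes called higher and 15 called lower. Plates 76, 77 and 78 made a shoulder after it, with values of 0.15, 0.14 and 0.09 in I and 0.24, 0.28 and 0.26 in II. Plate 79 was high once more, at 0.42 and 0.62.

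Plates 80 and 81 made the sharpest alternation of the 30. Plate 81 had a median of 0.56 in I and 0.54 in II, against -0.74 and -0.75 for plate 80, a difference of 1.30 in I and 1.29 in II, with a mean of 1.29 ± 0.003 (SD, n = 2). In plate 81, 69 probes were called higher and 13 lower, and in plate 80, 12 were called higher and 67 lower. With 2 replicates, a sign-flip test cannot give a two-sided p below 0.5. All 8 plate rows of plate 80 had negative medians, from -0.29 to -1.03.

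A lower part came next. Plates 82 and 83 lay near the middle, at -0.13 and 0.06 in I and at -0.11 and -0.14 in II. Plate 84 was low, at -0.71 and -0.62, with 71 probes called lower, the largest number of any plate in the stretch. Its row B had the lowest row median of all 240 rows, -1.66 in I and -1.80 in II. Plates 85 and 86 came back only part of the way, to -0.22 and -0.18 in I and -0.34 and -0.23 in II.

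Plates 87 to 90 then formed a high part, 4 plates in succession. Their medians were 0.37, 0.42, 0.57 and 0.59 in I and 0.30, 0.54, 0.52 and 0.71 in II. In plate 90 all 8 rows had positive medians, from 0.16 to 0.98, and 6 probes were called lower, the fewest of any plate. Row B of plate 88 had the highest row median of the stretch, 1.68 in I and 1.46 in II.

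The last plates alternated in level. Plate 91 was in the middle, at -0.03 and 0.02, and plates 92, 93 and 94 were above it, at 0.30, 0.37 and 0.26 in I and 0.22, 0.17 and 0.37 in II. From there on the level went down and up in turn: plate 95 at -0.48 and -0.34, plate 96 at 0.55 and 0.65, plate 97 at -0.35 and -0.38, plate 98 at -0.02 and 0.04, and plate 99 at -0.64 and -0.63. Plate 98 lay so near the array median that its side is not resolved. The TA series ended here, and the first plate of the TB series was at 0.22 in both replicates.

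Counted on the mean of both replicates, 17 plates lay above the array median and 13 below. The side changed at 13 of the 29 passages between consecutive plates, at 15 in replicate I and at 11 in replicate II. With plates within 0.1 of the array median passed over, 9 changes were left. Centring on the most common value left 6, because it puts more plates below. On the mean, the longest runs of plates on 1 side were plates 75 to 79 above and plates 82 to 86 below, 5 plates each. Of these 14 runs, 8 were a single plate. Read singly, the replicates differed: the longest run above had 5 plates in I and 8 in II, and the longest below 3 and 5.

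Side by side with other plates, the stretch had a higher share of changes of side; the difference was not tested, because the stretch was chosen on its plate medians. The share of passages with a change was 44.8%, against 15.8% in TA plates 1 to 20, 11.8% in TA plates 52 to 69 and 19.2% in the 100 TB plates. Those plates lay further from the array median, with medians of 0.34, -0.70 and 0.34, so a change of level there crosses it less readily. The size of the steps does not depend on the centre. Consecutive plates differed by a median of 0.39 in the stretch, against 0.20, 0.25 and 0.24. Direction turned at 21 of 28 pairs of consecutive steps (75%), against 12 of 18 (66.7%), 9 of 16 (56.3%) and 64 of 98 (65.3%). Medians of consecutive plates correlated with r = -0.09 in the stretch, against -0.14, 0.61 and 0.19. By this measure TA plates 1 to 20 alternated no less than the stretch.

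Of the 29 steps, 23 had the same direction in both replicates, 13 were larger than 0.5 and 4 larger than 1. The largest was the rise to plate 81 described above. The second largest was the step from plate 79 to plate 80, of -1.16 in I and -1.37 in II. The step to plate 75 was 0.91 and 1.15, that to plate 96 was 1.03 and 0.99, and that to plate 97 was -0.89 and -1.03. Each of these 5 steps exceeded the difference between the replicates in it.

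Plates were mixtures. Medians of the 8 rows of a plate, 12 wells each, had both signs in 25 of 30 plates. Plates 75 and 90 had positive medians in all their rows, and plates 80, 84 and 97 negative ones. Over all 240 rows, 131 medians were positive and 109 negative, 224 had the same sign in both replicates, and the sign changed at 85 of 239 passages. The longest successions of rows on 1 side were 11 positive rows from row F of plate 89 to row H of plate 90, with medians of 0.62 in I and 0.70 in II, and 11 negative rows from row H of plate 96 to row B of plate 98, with medians of -0.38 and -0.44. The second longest low succession, of 10 rows, ran from row G of plate 83 to the end of plate 84.

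**Figure D2:**
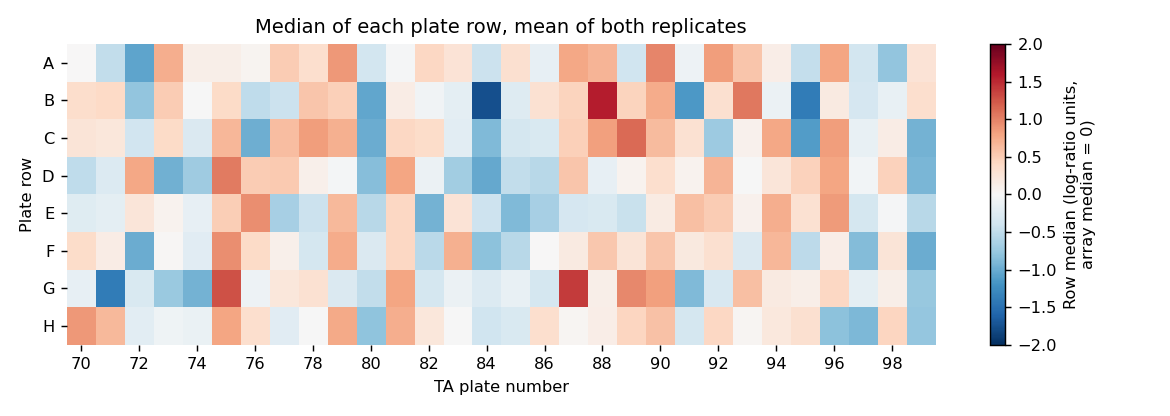
Median of each row of 12 wells (A to H, down the page) on each TA plate from 70 to 99, computed on the mean of both replicates, in log-ratio units with the array median at 0. Rows of both signs share most plates, the darkest low row is B of plate 84 and the darkest high row is B of plate 88.

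High and low plates differed in how many probes were called in each direction and, by less than 0.3, in how far the called probes lay from the median. Plates were sorted into 9 with a mean median over 0.3, 6 under -0.3 and 15 between, limits chosen with the values known. A difference in calls between these sets follows from sorting the plates by the same values, and the shares are a description. In the 9 high plates 63.0% of probes were called higher and 16.1% lower, and in the 6 low plates 17.7% and 62.0%. Probes called higher had a median of 0.81 in I and 0.89 in II on high plates, and still 0.71 and 0.69 on low plates. Probes called lower had a median of -0.70 in I and -0.64 in II on high plates, and -0.93 and -0.91 on low plates.

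High and low plates also differed in the number and length of runs, that is, of consecutive probes called in the same direction. Counted within plates, high plates had 10.9 runs of higher probes per plate with a mean length of 5.52 probes, and low plates 7.17 runs with a mean of 2.37. Runs of lower probes averaged 2.12 probes on high plates and 5.10 on low plates, at 7.22 and 11.7 runs per plate. Plates in between had runs of both kinds of similar length, 3.12 probes for higher and 2.90 for lower.

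Followed through the whole stretch in order of plate, row and column, across plate borders, the probes called higher formed 295 runs and the probes called lower 301. High runs had a mean length of 3.93 probes and a median of 3, low runs a mean of 3.31 and a median of 2. Single probes made up 77 of the high and 103 of the low runs. Runs of at least 10 probes were few, 24 high and 17 low, but held 31.3% of the probes called higher and 24.8% of those called lower. A plate border was crossed by 11 high and 7 low runs. Where the order was taken down the plate columns, mean lengths were 1.91 and 1.78.

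**Figure D3:**
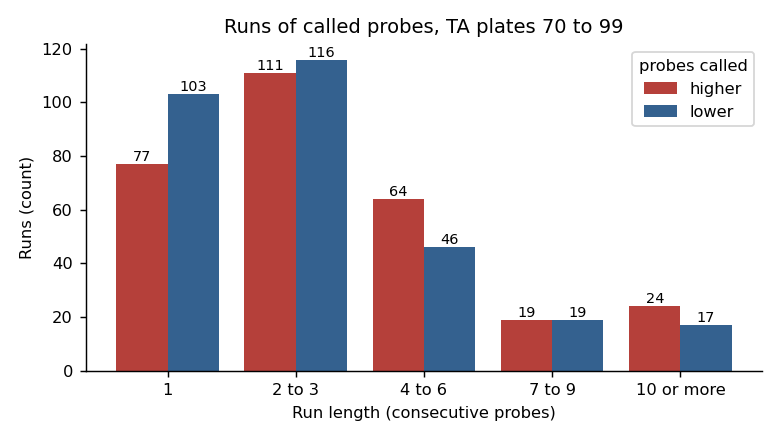
Number of runs of consecutive probes called higher or called lower in TA plates 70 to 99, by run length in probes. Most runs are short in both directions, and 24 high and 17 low runs reach 10 probes or more.

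The longest high run had 32 probes, from TA75F08 on plate 75 to TA76A03 on plate 76, with medians of 0.80 in I and 1.01 in II. The second longest, TA75C07 to TA75E05, a run of 23 probes at 0.83 and 1.08, lay on plate 75 as well. Rows A and B of that plate, outside both runs, had positive medians too, 0.11 and 0.39 on the mean of both replicates. The third longest high run, 22 probes from TA88B02 to TA88C11, was the more elevated, at 1.22 and 1.13, with single probes between 0.54 and 2.06. All of these lay on plates with positive medians.

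The longest low run had 29 probes, from TA95A06 to TA95C10, at -1.39 in I and -1.17 in II. The second, 20 probes from TA97H03 to TA98A10 at -0.95 and -0.86, and the third, 19 probes from TA71H10 to TA72B04 at -1.08 and -1.10, both crossed a plate border. The fourth was shorter but deeper: 18 probes from TA84A11 to TA84C04 had medians of -1.63 and -1.77, and held the whole of row B, named above as the lowest row.

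Beside other plates, runs differed along with the level of the plates. Mean lengths of high runs were 3.93 in the stretch, 4.56 in TA plates 1 to 20, 2.55 in TA plates 52 to 69 and 4.34 in the TB plates. Mean lengths of low runs were 3.31, 3.16, 6.99 and 2.96. The longest low run of the stretch, 29 probes, compares with 23, 62 and 22. These differences were not tested.

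Single probes lay closer to the array median than long runs did. Single probes called higher had a median of 0.61 in I and 0.54 in II, and those in runs of 10 or more 0.80 and 0.90. On the low side the values were -0.53 and -0.54 for single probes and -1.08 and -1.06 in runs of 10 or more. Within the 36 low runs of at least 7 probes, the median was -0.65 in I and -0.65 in II at the first probe, -1.01 and -1.05 in the middle and -0.80 and -0.75 at the last. The 43 high runs of that length had 0.82 and 0.75 at the first probe, 0.89 and 0.99 in the middle and 0.65 and 0.66 at the last. Runs were cut by the calls on these same values, so the levels at their ends are not independent of that cut.

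Passages from a high to a low run, or back, were abrupt in many places. Of 376 such passages, 157 had no uncalled probe in between, 137 had 1 and 82 had at least 2, with a longest gap of 11. The 219 passages between runs of the same direction were interrupted by 1 uncalled probe in 141 places and by more in 78. A probe next to a run is by definition not called in that run's direction. For high runs of at least 7 probes, the probe just before had a median of -0.003 in I and 0.07 in II. The probe just after had -0.006 and -0.10. For low runs of that length the values were -0.04 and -0.04 before and -0.07 and -0.16 after.

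Both replicates gave nearly the same picture when read singly. A value over 0.3 was found for 1130 probes in I and 1167 in II, and 1007 were shared, 89.1% of the first list and 86.3% of the second. Values under -0.3 were found for 976 and 1023 probes, with 852 shared, 87.3% and 83.3%. Such lists were not compared for the rest of the array, so these shares are not a trait of the stretch. The sign was shared by 2593 probes (90.2%), against 92.4% in the rest of the array. In the stretch 8 probes were called although their signs differed, and in the rest 57 of 18854. Replicates correlated with r = 0.933 across the probes of the stretch, which are not independent replicates, and 0.955 in the rest, where values were spread more widely.

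Single probes reached almost as far as anywhere on the array. The highest was TA71A01, at 2.40 in I and 1.94 in II, a mean of 2.17 ± 0.33 (SD, n = 2), and the second was its direct neighbour TA70H12, at 2.25 and 1.99. This pair spans the border of plates 70 and 71 inside a run of 11 higher probes, although neither plate is high as a whole. TA87D02 (2.24 and 1.96), TA93B02 (2.22 and 1.92) and TA88B07 (2.24 and 1.87) followed, all higher in I than in II. The highest probe elsewhere was at 2.28 and the lowest at -2.40.

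On the low side, TA84F04 was at -2.15 in I and -2.29 in II, a mean of -2.22 ± 0.10 (SD, n = 2), and its neighbour TA84F05 at -1.72 and -2.33. TA99C10 had -1.66 and -2.60, the widest spread between replicates among the 10 named probes, with an SD of 0.66. TA88E05, at -2.14 and -2.04, lay on a high plate in a run of 3 lower probes. TA96H07, at -1.93 and -2.01, likewise lay on a high plate, near its end, in a run of 11.

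Probes close in order had similar values, and the similarity faded within a plate. Across pairs of wells of the stretch, r was 0.714 at a distance of 1 well (2867 pairs), 0.492 at 2 wells, 0.350 at 3, 0.160 at 12 and -0.017 at 96. Relative to their plate's median, which takes out any slow variation whether or not it follows the plates, probes 12 wells apart had r = 0.0074. Wells that meet at a plate border had r = 0.795 over 29 pairs, against 0.718 for 2628 pairs within a plate row. The median absolute difference was 0.185 across a border and 0.339 within a row, so neighbours on 2 different plates differed no more by either measure than neighbours on the same plate.

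Larger windows gave another picture of the borders. Plates explained 17.2% of the variance among the probes in I and 18.8% in II, against 5.07% and 6.75% in TA plates 1 to 20, 16.6% and 17.3% in TA plates 52 to 69 and 8.67% and 10.6% in the TB plates. When windows of 96 wells were started inside the plates, a comparison chosen after the data had been seen, the spread of their medians was smaller. The SD was 0.40 in I and 0.43 in II for windows on the plate borders, and 0.28 and 0.32 for windows shifted by 48 wells, with values in between for the other shifts of 12 wells each. In the TB plates it was 0.26 in I and 0.30 in II on the borders, and 0.26 and 0.29 after a shift by 48 wells. TA plates 52 to 69 had a spread as large as the stretch, 0.43 in I and 0.43 in II on the borders, and 0.41 and 0.41 after that shift. TA plates 1 to 20 had 0.26 and 0.30 on the borders, and 0.26 and 0.31 after it. The limits of the stretch were chosen on plate medians, which are the windows on the borders, so their larger spread is no independent finding. Positions within the plate differed little: medians of the 12 columns lay between -0.10 and 0.15 and those of the 8 rows between -0.09 and 0.15.

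**Figure D4:**
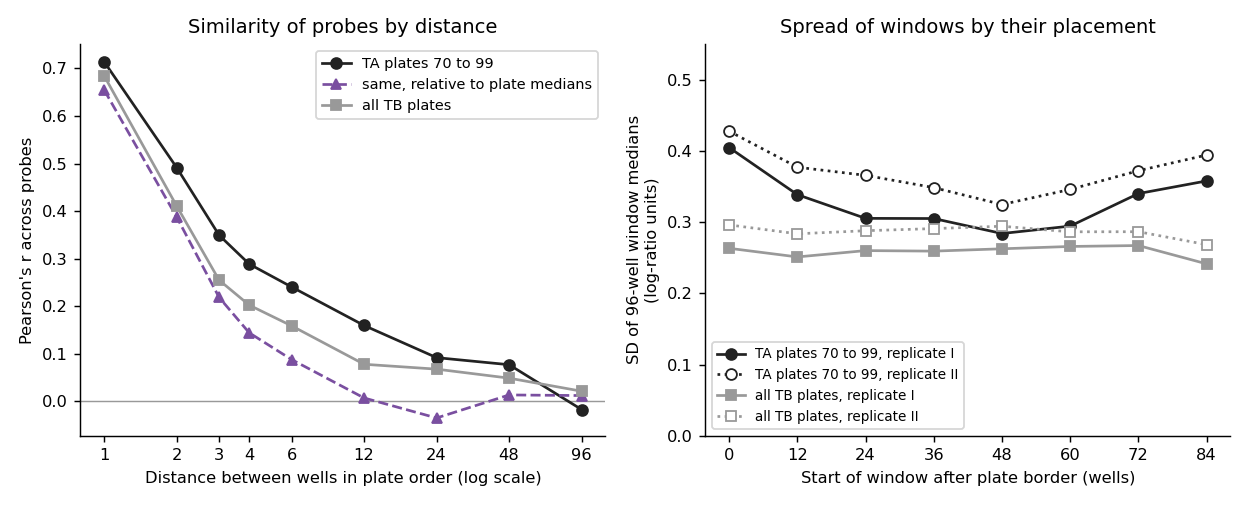
Left: Pearson's r across probes between wells at increasing distance in plate order (log axis), for TA plates 70 to 99, for the same probes relative to their plate's median, and for all TB plates. Right: SD of the medians of 96-well windows against the number of wells by which the windows start after a plate border, for TA plates 70 to 99 and all TB plates in each replicate; the curves of TA plates 70 to 99 are highest at 0 wells and lowest at 48.

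Levels on both sides of a border were compared too, which the choice of the stretch on plate medians touches in the same way. The medians of the 36 wells after and the 36 wells before a plate border differed by a median of 0.58 in I and 0.59 in II over 29 borders. In the middle of the plates, 48 wells after a border, the difference was 0.26 and 0.35. In the TB plates the corresponding values were 0.23 and 0.28 at borders and 0.25 and 0.29 in the middle. TA plates 52 to 69 had 0.37 and 0.39 at borders and 0.29 and 0.38 in the middle. In TA plates 1 to 20 the values were 0.30 and 0.31 at borders and 0.39 and 0.29 in the middle, with the largest change, a mean of 0.52, found 36 wells after a border. Whether the plates themselves had a part in the alternation was not tested.

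Where the 13 steps larger than 0.5 lay was read from a fit of 2 levels over both plates of each step, with at least 12 probes on each side. These steps were picked by their plate medians, which favours changes near a border, so the places found are a description. Of these, 4 lay within 5 probes of the border in both replicates and 5 more than 12 probes from it in both. At the start of plate 80 the fit placed the change 2 probes after the border in I and at the border in II, with a mean level of -0.58 and -0.62 after it, against 0.42 and 0.50 before it. The fit placed the end of the low part 3 probes into plate 81 in both replicates. Rows A and B of plate 81 were still near the array median, at -0.03 and 0.15 on the mean of both replicates. Steps into plates 95 and 76 were also placed within 3 probes of a border.

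Other steps did not keep to the borders. The rise between plates 95 and 96 was placed 60 probes before the border in both replicates, shortly after the run of 29 low probes. Plate 95 was low in its first rows, and its rows D, E, G and H had medians above the array median. The fall from plate 96 to plate 97 came 17 probes before the border in I and 15 in II, in the last rows of a plate with a median of 0.60. The change between plates 81 and 82 was placed 44 probes into plate 82 and that between plates 98 and 99 was placed 28 probes into plate 99, in both replicates each. The replicates gave the same place, within 5 probes, at 10 of the 13 steps. The step from plate 74 to 75, the third largest, was placed 30 probes after the border in I and 19 in II, and the steps from plate 90 to 91 and from plate 71 to 72 lay further apart.

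**Figure D5:**
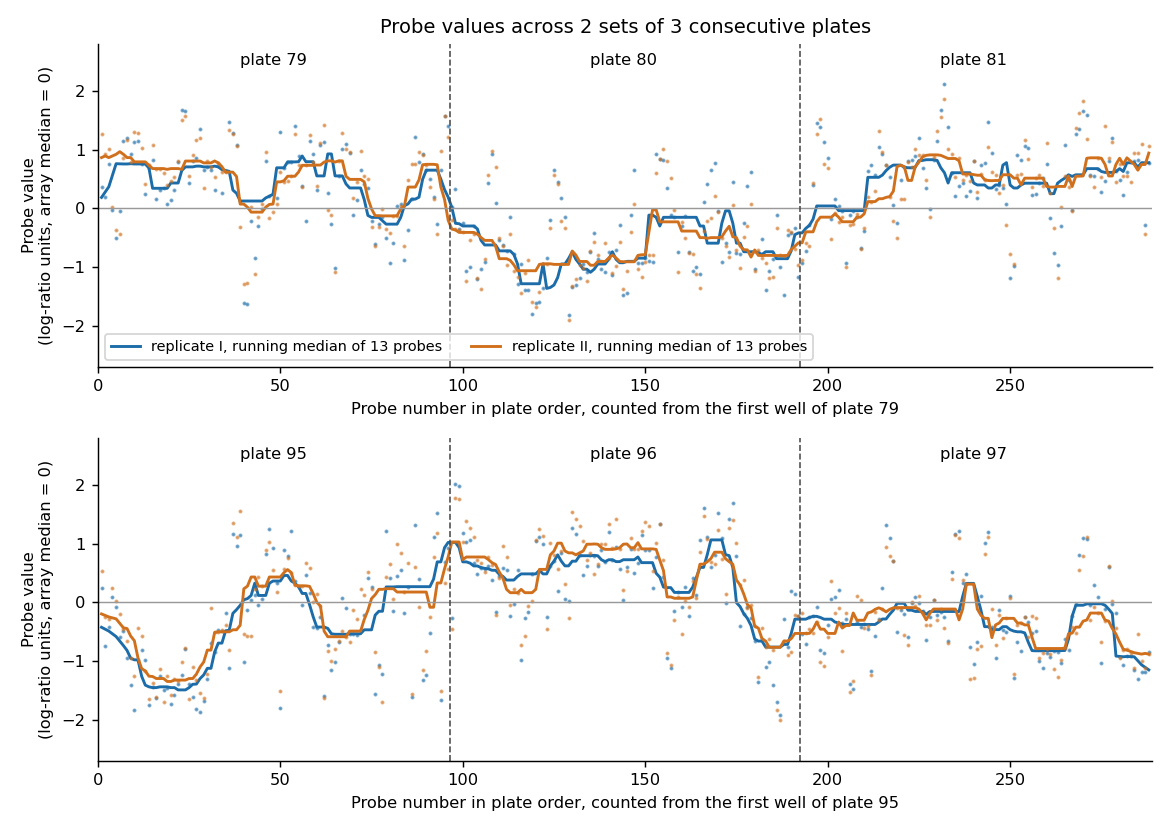
Values of single probes (dots) and running medians of 13 probes (lines) in both replicates, in log-ratio units with the array median at 0, for plates 79 to 81 (top) and 95 to 97 (bottom); dashed lines are plate borders. The low level of plate 80 begins and ends near its borders, although 12 of its probes were called higher. The change from low to high in plate 95 and the fall at the end of plate 96 lie inside the plates.

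How many levels the values of the stretch formed depended on the smoothing. Smoothed with a Gaussian kernel of bandwidth 0.1, replicate I had peaks at -0.74, -0.05 and 0.70 and replicate II at -0.93, -0.23 and 0.79. With a bandwidth of 0.2, a single peak at 0.06 was left in I, and peaks at -0.19 and 0.69 in II. At the smaller bandwidth both replicates thus had 3 peaks, and at the larger their number differed.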

How the data were processed

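Per the labels, each channel took 15 µg of amplified DNA. The deposited values, treated as a score in log-ratio units, lie on both sides of 0; how they were normalized, with which base and direction, is not stated by labels or file headers, and precision is limited by the number of arrays. Each dye swap was averaged to 1 profile and centred on its median over 21728 valued probes (-0.02 in I and 0.47 in II before centring).

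Each probe was tested against 0 with limma 3.58.1 (R 4.3.3; intercept only, eBayes, estimated prior degrees of freedom 117, poorly determined with 1 residual degree of freedom). On simulated data for this comparison (21728 probes, 200 changed), 37.4% of changes of 0.5 and all changes of 1 were recovered, with 5.04% and 4.30% of calls false. In the real data 80.4% of probes were called and values near 0.30 already passed. The simulated setting thus differed, and its rates do not describe the calls given here. Plate values are per-replicate medians, averaged. An empty well neither ended nor lengthened a run, and runs were cut at both ends of the stretch. Probes were named by rule: the 5 highest and lowest with equal signs, the 3 longest runs per direction (the fourth low run was added after its values were seen), the 5 extreme plates and the 5 largest steps. Members, comparisons and limits were chosen with earlier results of these data known. Python 3.11.15, numpy 2.4.6, pandas 2.3.3, scipy 1.17.1 and matplotlib 3.10.9 were used.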

Additional observations from a re-analysis of the deposited data

How the results depend on the processing

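Of 101 alternative values for 12 results, 56 kept within 1.5 times (counts) or within 1 SD of the replicates (other values), while 45 moved; that spread between 2 replicates was often very small, so small shifts count as moved. Shifts of the window start were chosen after seeing the data. With the main mode as centre, the stretch had 397 higher and 1636 lower probes, the median was -0.53, plates changed sides 6 times, high runs averaged 2.01 probes (longest 10) and low runs 5.44. Centred on the mean, the median was 0.16 and low runs averaged 3.02. Without centring, 520 probes were lower, the median was 0.27, high runs averaged 3.59, low runs 2.27 and the longest low run had 17 probes. Each of these centres moved all values of a replicate alike, and without centring the offset between replicates stayed in. The limma fit also changed with the centre. Its prior degrees of freedom were 11.0 for the mean and infinite for the main mode and without centring. How much of the change in calls and runs came from either was not tested. Mean lengths of high and low runs were 3.47 and 3.09 at a threshold of 0.01, 3.07 and 2.96 with a minimum effect of 0.5, 3.35 and 3.08 with prior degrees of freedom of 4, and 4.31 and 4.16 from shared signs; low runs averaged 3.30 with scaled replicates and 3.24 where an empty well or a border ended a run. Down the plate columns the values were 1.91 and 1.78, the longest low run had 16 probes and consecutive wells had r = 0.175, against 0.655 relative to plate medians. Plate means gave a mean level of 0.025, a spread of 0.35 and a difference of 1.06 between plates 81 and 80, and deviations from plate medians a share of 16.6% between plates. Windows shifted by 12, 24, 36, 48, 60, 72 and 84 wells had spreads of 0.36, 0.34, 0.33, 0.30, 0.32, 0.36 and 0.38. With 1 replicate left out, r of consecutive wells was 0.697 to 0.702, high runs averaged 3.45 to 3.83 and low runs 3.35 to 3.38, at values over 0.3 or under -0.3. Beyond the construction of each alternative, the cause was not tested. No paired analysis was possible because there is 1 group, and duplicateCorrelation was not run because the columns of a swap are identical. Signal over background was not examined.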

Other observations

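The probes of the stretch on which the replicates differed most were TA93D09, at 0.40 in I and -1.05 in II, TA75E08, at -0.74 and 0.67, and TA99C08, at -0.85 and -2.20. They lay on 3 different plates. Of the 6 empty wells, 5 were on plate 94 and 1 on plate 83, and plate 94, with 91 values, was at 0.32 ± 0.08 (SD, n = 2).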
